A study of Drosophila melanogaster with 12 samples.

Results

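Male larvae and male adults of the fruit fly Drosophila melanogaster were compared in whole animals. The 4 arrays were chosen by their labels as male larvae of the third instar (2 arrays) and male adults (2 arrays), out of 12 arrays in the whole study. All animals came from LHm, an outbred laboratory population kept at 25 °C, carried no transgene or treatment named in the labels, and were collected at the same time from vials started at staggered times. Each array held RNA of 10 whole animals, so larval and adult organs were measured together. Female larvae and female adults (2 arrays each) were used for the shared estimate of the spread and for a test of whether males and females changed alike. The age of the adults is not given in the sources used here, and pupae were not used.

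Between these stages the animal is rebuilt. Most larval organs, among them the salivary glands and the larval epidermis, are broken down in the pupa, while imaginal discs and small nests of founder cells build the legs, wings, flight muscles, compound eyes and genital organs of the adult. A larva of the third instar eats and grows, stores protein and fat, and makes the glue with which the puparium is fixed to a surface. The adult male flies, courts and makes sperm and seminal fluid, and does not grow.

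Values are log2 expression values made with RMA, where a difference of 1 is a 2-fold difference. A difference is always male adults minus male larvae unless females are named, a value after ± is its standard error from limma, and a probe set or gene was called when its Benjamini-Hochberg adjusted p over all 18769 probe sets was under 0.05. Each gene is represented by its brightest probe set that matches 1 gene, which gave 11982 genes. Levels of different genes are not compared, since probe sets differ in brightness. In whole animals, fewer cells of a type and less RNA per cell cannot be told apart, and this holds for every value below.

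The 2 male larval arrays had a Pearson correlation of 0.996 and the 2 male adult arrays of 0.997, against 0.812 to 0.816 between a larval and an adult array. Array medians were 6.77 to 6.8 in larvae and 6.73 to 6.75 in adults. Over 16 bacterial control probe sets the difference had a median of 0.05 and ranged from -0.07 to 0.24. Genes of yolk, eggshell and vitelline membrane checked the sex labels of the adult arrays, but not those of the larval arrays. Their 15 measured members lay between 3.63 and 8.03 on the male arrays and rose by a median of 7.54 from larvae to adults in females, against -0.03 in males.

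Of 18769 probe sets, 4569 (24.3%) were higher and 6021 (32.1%) lower in male adults than in male larvae. By gene, 3787 of 11982 (31.6%) were higher and 4891 (40.8%) lower. The median gene differed by -0.11. With a minimum of 2-fold, the counts were nearly balanced at 2519 genes higher (21.0%) and 2321 lower (19.4%). Changes of at least 64-fold were called for 115 genes in the upward and 82 in the downward direction. From under 6 on both larval arrays to at least 10 on both adult arrays went 141 genes, and 87 genes went the other way. Of the 141, 31 were on the list of seminal fluid genes, 28 were also at 10 or above on both female adult arrays and 63 were under 6 there. Of the 87 genes that were bright in male larvae, 76 were at 10 or above on both female larval arrays too.

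**Figure D1:**
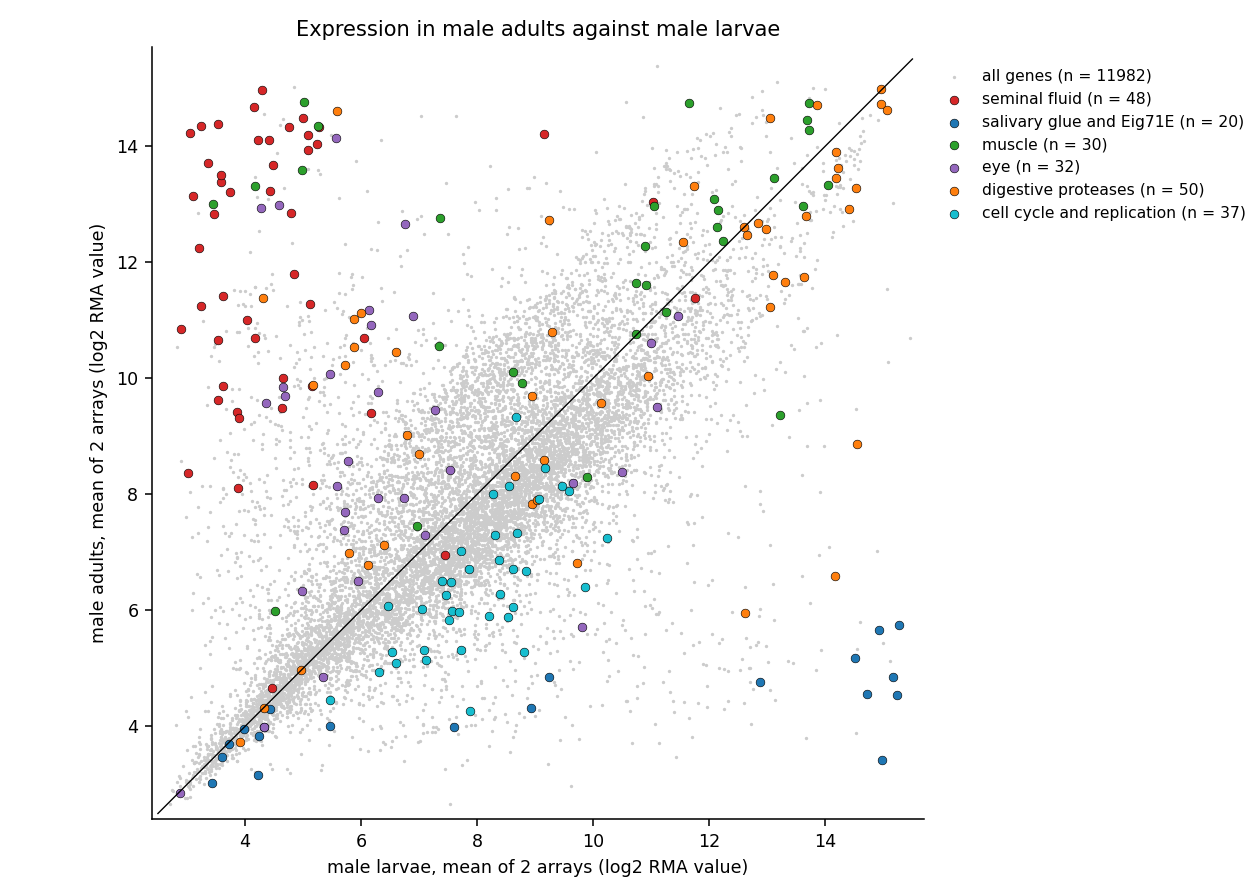
Mean log2 RMA value of each of 11982 genes in male larvae (x axis, 2 arrays) against male adults (y axis, 2 arrays), with 6 gene lists in colour and the line of equal values. Seminal fluid genes fill the upper left, glue genes lie at the lower right, digestive proteases spread to both sides of the line, and 35 of 37 cell cycle genes were called lower.

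Seminal fluid genes had the highest median of the 34 gene lists. These proteins are made in the accessory glands, ejaculatory duct and ejaculatory bulb and pass to the female with sperm. Of 48 measured members, 45 were higher in adults, all 45 by at least 2-fold, and 1 was lower, with a median difference of 7.97.

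EbpII, a protein of the ejaculatory bulb, read 3.09 and 3.00 on the larval arrays and 14.25 and 14.19 on the adult arrays. Both adult arrays stood far above both larval arrays, with a difference of 11.17 ± 0.10 (adjusted p = 2.34e-10). Ebp, the main protein of the mating plug made in the same organ, read 4.29 and 4.30 in larvae and 15.12 and 14.82 in adults, a difference of 10.68 ± 0.13 (adjusted p = 3.41e-10). Rises of like size were found for Acp53C14a (11.11 ± 0.13), Acp53Ea (10.84 ± 0.10) and Acp53C14b (10.52 ± 0.13), accessory gland proteins whose genes lie together on chromosome arm 2R. Acp26Aa, the ovulin that raises egg laying in the mated female, rose by 10.03 ± 0.11, from 3.03 and 3.19 to 13.23 and 13.05.

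Protease inhibitors and the sex peptide pathway moved with them. All 7 measured serpins of the seminal fluid were higher, with a median of 8.80, among them Spn38F (10.35 ± 0.22) and Spn28F (9.91 ± 0.14). Acp76A, a serpin counted here with the Acp genes, rose by 9.89 ± 0.13. BG642312 (10.22 ± 0.14), with no role given here, and the seminal fluid protein Sfp24Bb (9.80 ± 0.18) were also among the 12 largest rises of all genes. SP, the sex peptide that lowers the mated female's receptivity, read 5.10 and 4.90 in larvae and 14.49 and 14.46 in adults (9.48 ± 0.12, adjusted p = 3.41e-10). With SP, 6 further genes of the network that carries sex peptide on sperm were measured, and all 7 were higher, by 3.22 to 9.48. The other 3 members were not called higher. Gld, a glucose dehydrogenase with roles in the cuticle as well as in the ejaculatory duct, differed by -0.37 ± 0.20 (adjusted p = 0.164), Sfp65A by 0.19 ± 0.14 (adjusted p = 0.281), and Acp95EF was lower by -0.48 ± 0.15 (adjusted p = 0.0218), a call that was lost without either adult array or without male larvae replicate 1 (adjusted p = 0.0825 to 0.13).

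Testis genes rose less, from a median larval level of 8.51. The testis is present in the larva of the third instar, with spermatogonia and spermatocytes, and sperm mature later. Of 69 measured members, 53 were higher and 3 lower in adults, with a median of 1.64 and a largest difference of 2.46. w-cup, a cup gene transcribed in spermatids, read 10.04 and 10.45 in larvae and 12.74 and 12.66 in adults (2.46 ± 0.20, adjusted p = 9.82e-06). Mst84Db, a sperm tail protein, rose by 2.44 ± 0.19 from 11.11 and 11.34, schuy by 2.43 ± 0.18 and janB by 2.41 ± 0.18. Mst77F, a linker-histone-like protein of sperm chromatin, rose by 1.28 ± 0.18 from 12.18 and 12.48 to 13.65 and 13.57.

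By step, all 6 measured cup genes were higher (median 1.66), as were all 4 S-Lap leucyl aminopeptidases of sperm (1.94), all 6 genes of sperm chromatin (1.43) and 10 of 11 Mst genes (2.27). The meiotic arrest genes are regulators that spermatocytes need to enter meiosis and to switch on the late programme. Of 11 of these genes and partners, 1 was higher, 2 were lower and 8 were not called, with a median of -0.29. The 2 that were lower were Taf12L (-0.85 ± 0.15, adjusted p = 0.00128) and comr (-0.31 ± 0.11, adjusted p = 0.0461). The adjusted p of comr ran from 0.0172 without male larvae replicate 1 to 0.303 without male larvae replicate 2. bam, which ends the divisions of the spermatogonia, read 6.54 and 6.69 in larvae and 4.83 and 4.55 in adults (-1.93 ± 0.15, adjusted p = 5.44e-06). twe, the phosphatase that starts meiosis in males, differed by -0.40 ± 0.16 (adjusted p = 0.0574).

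**Figure D2:**
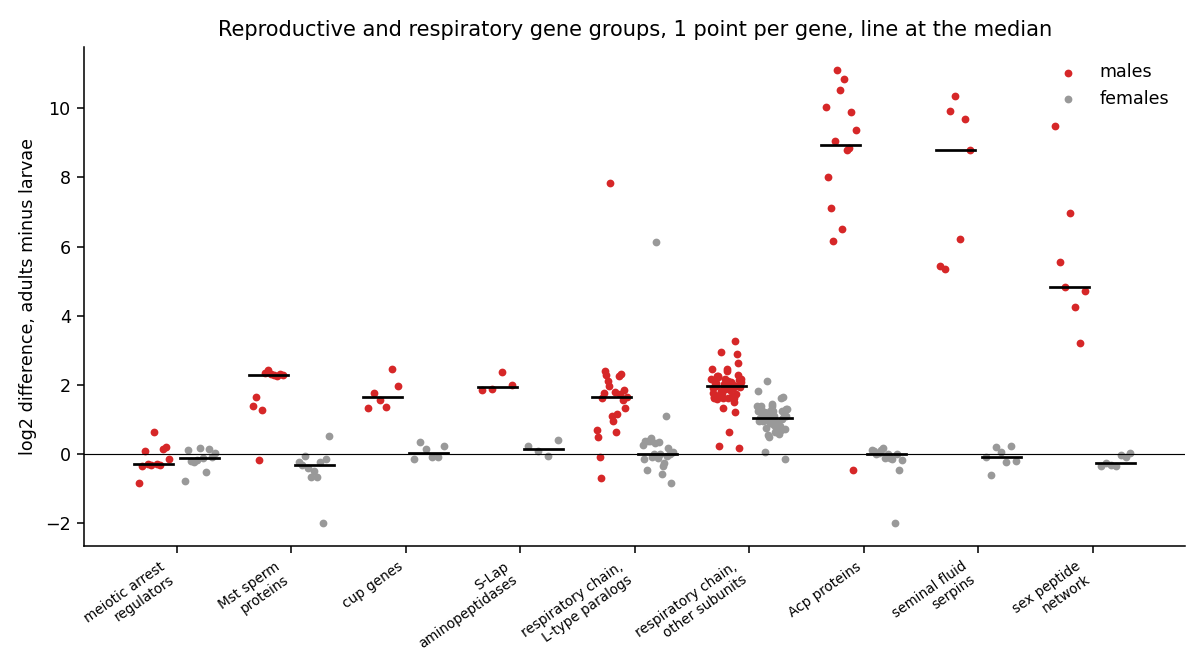
Log2 difference between adults and larvae for each gene (points) and the median (line) of 9 groups, in males (red) and females (grey). In males the meiotic arrest regulators have a median of -0.29, the Mst, cup and S-Lap groups medians of 1.66 to 2.27, and the Acp genes and seminal fluid serpins medians of 8.95 and 8.80. The female medians of these groups lie between -0.32 and 0.15.

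Genes of the sarcomere and of flight muscle changed widely. The larva crawls with body wall muscles, and the adult adds the fibrillar flight muscles and the jump muscle, which use their own actin and troponin C genes. Of 30 measured muscle genes, 23 were higher and 4 lower, with a median of 0.95. All 5 measured genes for isoforms of flight or jump muscle rose by 8.6 to 9.75. Act79B, an actin of the jump muscle and leg muscles, read 5.10 and 4.92 in larvae and 14.74 and 14.77 in adults (9.75 ± 0.15, adjusted p = 6.99e-10). Flightin, fln, which stiffens the thick filament, rose by 9.55 ± 0.25, TpnC4 by 9.14 ± 0.19 and Act88F, the actin of the indirect flight muscles, by 9.10 ± 0.26 from 5.15 and 5.35 to 14.22 and 14.48. The calcium-binding protein Scp1 of the sarcoplasm rose with them, from 4.90 and 4.78 to 15 and 15.05 (10.19 ± 0.13, adjusted p = 3.41e-10).

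Genes for troponin C, the calcium sensor of the thin filament, changed in opposite directions between the stages. TpnC73F read 13.23 and 13.19 in larvae and 9.39 and 9.32 in adults and so fell by 3.86 ± 0.10 (adjusted p = 8.52e-09). TpnC4 went from 4.40 and 3.96 to 13.23 and 13.40, and TpnC41C, which falls outside the rule for named genes and was picked after its values were seen, from 5.13 and 4.84 to 13.62 and 13.56. For all 3 genes the arrays of the stages were fully separate. Over 20 further sarcomere genes, TpnC73F included, the median was 0.84, with 15 higher and 3 lower. These counts use the brightest probe set, and dimmer ones, picked after their values were seen, differed widely for some genes. For Strn-Mlck, at 1.13, they differed by 8.49 ± 0.12 and 0.28 ± 0.09, and for Mlp60A, at 0.33, by 3.67 ± 0.19 and 3.86 ± 0.15. For Msp300, at 0.02, they ranged from -0.25 to 2.27, and for Obsc, at 3.21, the dimmer one differed by -0.01 ± 0.18. The light chain Mlc1 rose by 1.03 ± 0.14 from 13.75 and 13.67, while Zasp66 of the Z-disc was lower by -0.71 ± 0.12 and Mp20 by -0.66 ± 0.11. A dimmer probe set of Zasp66 was called the opposite way (0.73 ± 0.17) and another the same way (-1.0 ± 0.12).

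Genes of energy metabolism were mostly higher in adults. Of 75 measured nuclear genes of the respiratory chain and ATP synthase, 70 were higher and 1 was lower, with a median of 1.87. The list was split by name into 23 genes with an L suffix (L, L1 or L2) and 52 others, of which 50 were higher and none lower (median 1.96). Cytochrome c1, Cyt-c1, read 11 and 11.02 in larvae and 13.98 and 13.95 in adults (2.95 ± 0.09, adjusted p = 3.20e-08), the Rieske protein RFeSP rose by 2.89 ± 0.12 and ND-B8 of complex I by 3.28 ± 0.16. ND-MLRQ rose by 1.20 ± 0.10, from 13.77 and 13.82 to 15.05 and 14.95. UQCR-11 differed by 0.17 ± 0.16 (adjusted p = 0.422).

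The 23 genes with an L suffix hold paralogs of the standard subunits, and also ND-MNLL, itself a subunit of complex I. Of them 20 were higher and 1 lower, with a median of 1.64. COX7AL2 stood apart with a rise of 7.83 ± 0.14, from 5.73 and 6.09 to 13.73 and 13.75, and it rose in females too (6.14 ± 0.14). ATPsynepsilonL was the exception in the other direction (-0.70 ± 0.12), and ATPsynbetaL differed by -0.10 ± 0.20 (adjusted p = 0.719).

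Glycolysis and sugar metabolism followed, with 25 of 28 measured genes higher, 1 lower and a median of 1.11. Hexokinase C, Hex-C, rose most, from 4.98 and 4.89 to 10.86 and 10.98 (5.99 ± 0.15, adjusted p = 6.30e-09). Gpdh1, of the glycerol phosphate shuttle used by flight muscle, rose by 3.80 ± 0.21 at its brightest probe set. Further probe sets of Gpdh1 differed by -0.21 ± 0.16 (adjusted p = 0.311), 3.47 ± 0.19 and 6.59 ± 0.15. The trehalose synthase Tps1 rose by 3.70 ± 0.11 and Hex-t2, a hexokinase of the testis, by 2.58 ± 0.18. Gapdh1, already at 13.70 and 13.71 in larvae, rose 2.17-fold (1.12 ± 0.10). Pepck2, of gluconeogenesis, fell by 3.10 ± 0.18 (adjusted p = 1.10e-06), while Pepck1 differed by 0.24 ± 0.40 (adjusted p = 0.657) with larval arrays of 10.72 and 11.73 on either side of both adult arrays.

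The compound eye forms during pupal life, although the larva has small eyes of its own. Of 32 eye genes, 22 were higher and 6 lower, with a median of 1.83, and of 11 genes at the core of phototransduction 10 were higher. The gene retinin, for a protein of the corneal lens, read 4.44 and 4.12 in larvae and 12.88 and 12.99 in adults (8.66 ± 0.14, adjusted p = 7.61e-10). Arrestin 2, Arr2, which ends the signal of rhodopsin, rose by 8.57 ± 0.15 from 5.74 and 5.37 to 14.08 and 14.17, Pdh, the photoreceptor dehydrogenase that renews the chromophore, by 8.41 ± 0.14 and Arr1 by 5.91 ± 0.12. Galphaq, the G protein subunit that couples rhodopsin to its effector, depended on the probe set. The brightest probe set was lower in adults by -1.47 ± 0.12, another by -0.54 ± 0.19, and a further probe set rose by 5.44 ± 0.17, from a mean of 4.23 to 9.67.

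Single pigment and carotenoid genes of the same list moved in both directions. ninaD, a scavenger receptor for carotenoid uptake, rose by 4.17 ± 0.32 and the pigment transporter gene st by 2.56 ± 0.18, both picked after their values were seen. bw, a transporter for red pigment precursors, read 9.65 and 9.96 in larvae and 5.78 and 5.66 in adults (-4.08 ± 0.18, adjusted p = 2.42e-07). pinta, a retinoid-binding protein, was lower by -2.11 ± 0.10. The scavenger receptor santa-maria, needed for carotenoid uptake, differed by -1.58 ± 0.60 (adjusted p = 0.0501).

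Of 43 neuronal genes, 28 were higher and 3 lower, with a median of 0.77. Gad1, which makes the transmitter GABA, rose 32.0-fold, from 5.68 and 5.80 to 10.69 and 10.79 (5.0 ± 0.12, adjusted p = 6.16e-09). Snap25 of the synaptic release machinery rose by 3.67 ± 0.13, the acetylcholine receptor subunit nAChRbeta1 by 3.40 ± 0.14 and the sodium pump subunit nrv3 by 3.35 ± 0.10. Dopa decarboxylase, Ddc, which serves cuticle tanning as well as dopamine and serotonin neurons, fell by 4.10 ± 0.20 from 13.54 and 13.56 to 9.47 and 9.44. elav, an RNA-binding protein of neurons, was lower by -0.86 ± 0.19 (adjusted p = 0.00396).

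Odorant-binding proteins are small secreted proteins, many in the fluid around olfactory and taste neurons. Of 49 measured, 27 were higher and 9 lower. Obp57c read 4.23 and 3.78 in larvae and 11.33 and 11.16 in adults (7.24 ± 0.17, adjusted p = 5.0e-09), and its relatives Obp57a (5.81 ± 0.22) and Obp57b (5.36 ± 0.12) and the X-linked Obp19d (6.20 ± 0.10) rose as well. Obp99b fell by 4.77 ± 0.11, from 15.46 and 15.45 to 10.74 and 10.63, Obp83ef by 3.65 ± 0.24 and Obp99a by 2.16 ± 0.25. Obp56g (9.56 ± 0.11), Obp51a (9.45 ± 0.17) and Obp56f (7.95 ± 0.13), which lie on the seminal fluid list and were picked here after their values were seen, rose more than Obp57c. Of 166 odorant, taste and ionotropic receptors, 13 were higher (7.83%), 4 lower (2.41%) and 149 not called, against 31.6% and 40.8% over all genes. Their median level was 4.15 in larvae and 4.24 in adults. At such low levels differences are compressed, so the lack of a call does not show a lack of change.

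Clock genes were measured at 1 time of collection. Of 10, 6 were higher and 3 lower. timeless, tim, read 5.78 and 5.66 in larvae and 10.37 and 10.39 in adults (4.66 ± 0.18), the activator Pdp1 rose by 4.42 ± 0.22, the light receptor cry by 4.16 ± 0.11 and Clk by 1.87 ± 0.29. The repressor vri was lower by -1.54 ± 0.17 and the kinase gene dco by -1.12 ± 0.11. cyc was lower by -0.51 ± 0.17 (adjusted p = 0.0263), a call that was lost when any of the 4 male arrays was left out (adjusted p = 0.0536 to 0.126).

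**Figure D3:**
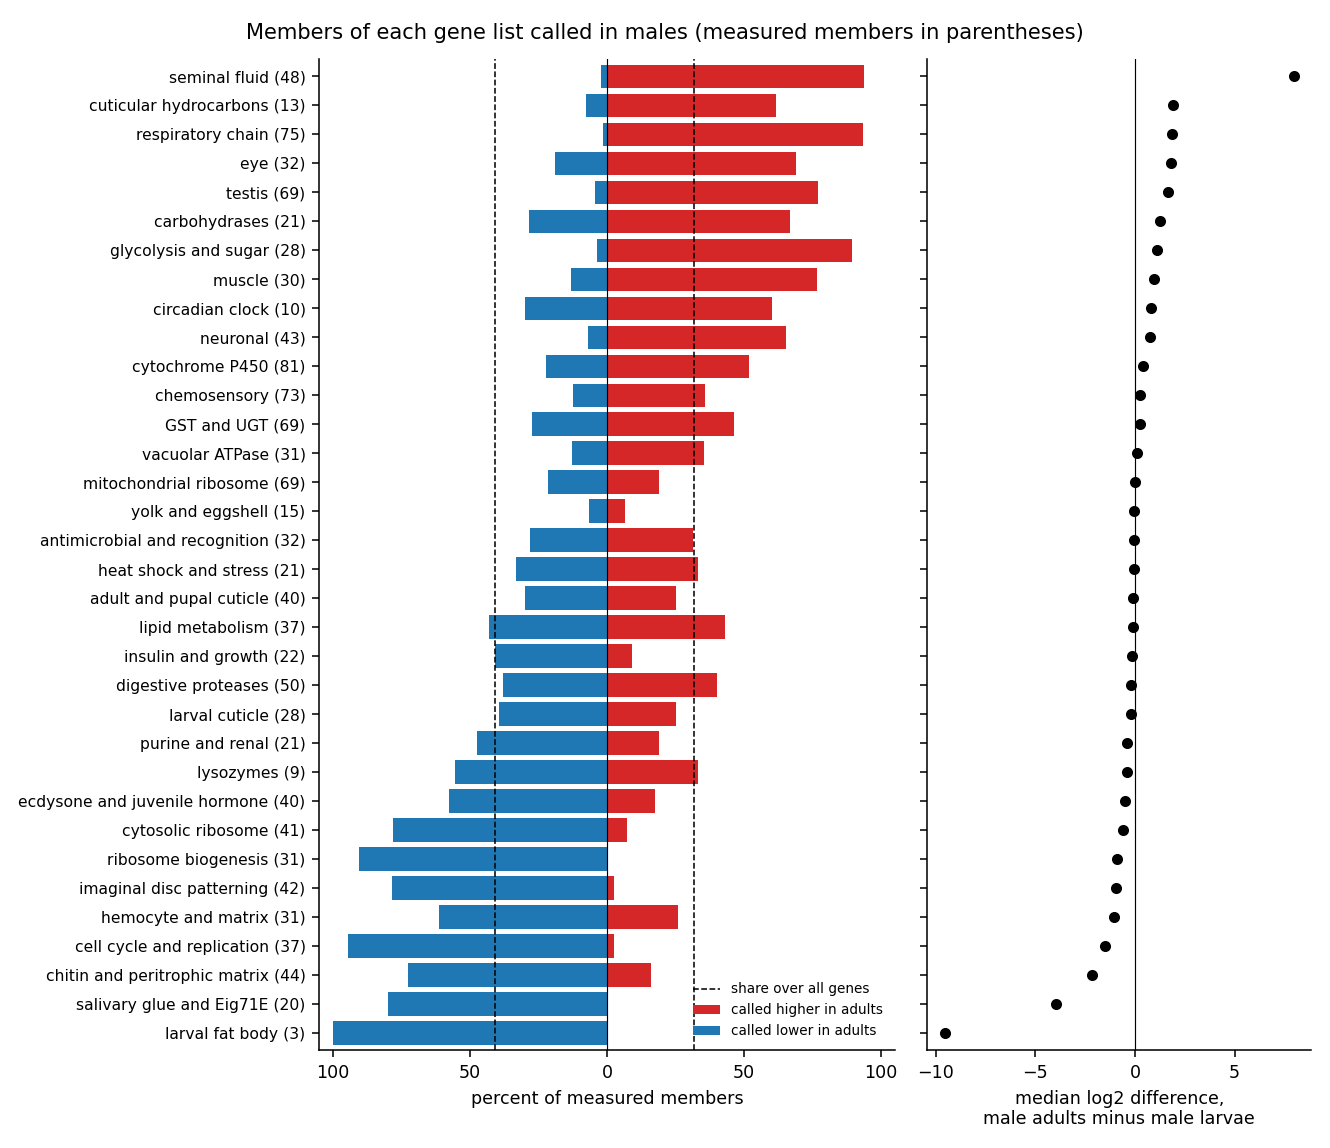
Left, percent of the measured members of each of 34 gene lists called higher (red) or lower (blue) in male adults than in male larvae, with the shares over all genes as dashed lines (31.6% and 40.8%). Right, the median log2 difference of each list, from -9.56 for larval fat body to 7.97 for seminal fluid.

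Products of larval glands and storage tissue made up most of the largest falls. All 8 measured Sgs genes, which encode the glue of the salivary gland, were lower in adults, by 4.34 to 11.56 in size and with a median of -9.84. Sgs4 read 14.98 and 14.97 in larvae and 3.32 and 3.51 in adults (-11.56 ± 0.24, adjusted p = 3.06e-09). Its adult values are near the floor of the array, so the difference is compressed by background. Sgs3 fell from 15.27 and 15.21 to 4.60 and 4.51, and Sgs7, Sgs5bis, Sgs5 and Sgs8 by 9.26 to 10.32. The list of 20 glue and Eig71E genes holds 7 of the 8 Sgs genes, without Sgsh, and 16 of its members were lower and none higher. Eig71Ee, induced by ecdysone, fell by 9.33 ± 0.12, whereas Eig71Ei, Eig71Ej and ng4 stayed between 3.49 and 4.49 on all 4 arrays and were not called.

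Fbp1, the fat body receptor that takes up storage proteins before pupation, read 15.13 and 15.11 in larvae and 5.36 and 4.87 in adults (-10.00 ± 0.16, adjusted p = 7.89e-10), and Fbp2 fell by 9.56 ± 0.15. Lsp2, a storage hexamerin of larval serum, fell much less, from 15.18 and 15.17 to 12.73 and 13.29 (-2.16 ± 0.33, adjusted p = 0.000407).

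Cuticle genes had no common direction. Of 28 genes listed for larval cuticle, 11 were lower and 7 higher, and of 40 listed for adult and pupal cuticle, 12 were lower and 10 higher, shares at or below those over all genes. Cpr49Ac read 14.53 and 14.51 in larvae and 3.81 and 3.94 in adults (-10.64 ± 0.14), Cpr78E fell by 9.22 ± 0.25, Pcp, the pupal cuticle protein, by 8.6 ± 0.19 and Lcp9 by 8.42 ± 0.19. Cpr49Ae, of the same gene cluster as Cpr49Ac, went the other way, from 5.38 and 5.13 to 13.53 and 13.66 (8.33 ± 0.17, adjusted p = 2.89e-09). The adult cuticle protein Acp65Aa rose by 4.13 ± 0.32, and Cpr62Bb by 3.46 ± 0.13. CG31789, with no role given here, completed the 12 largest falls at -9.86 ± 0.11.

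Genes of chitin and of the peritrophic matrix, the sleeve that lines the gut, were mostly lower: 32 of 44, with 7 higher and a median of -2.15. Chitinase 10, Cht10, which acts at the molt, read 12.35 and 12.31 in larvae and 4.52 and 4.35 in adults (-7.90 ± 0.15, adjusted p = 1.57e-09). Muc26B fell by 5.59 ± 0.19, Peritrophin-15b by 5.19 ± 0.17 and obst-J by 5.11 ± 0.17, and all 8 measured obst genes were lower at their brightest probe set. A dimmer probe set of obst-E was called higher (1.37 ± 0.20). Against that direction, the mucin Muc68D rose by 7.05 ± 0.13 from 4.51 and 4.44 to 11.36 and 11.69, Cht8 by 2.63 ± 0.26 and Muc14A by 1.86 ± 0.15.

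Ecdysone triggers molts and metamorphosis, and juvenile hormone sets which kind of molt follows. Of 40 genes of these hormones, 23 were lower and 7 higher, with a median of -0.50. br, the Broad transcription factor that marks the larva-to-pupa step, read 12.20 and 12.30 in larvae and 3.95 and 4.65 in adults (-7.95 ± 0.22, adjusted p = 1.32e-08). The ecdysone-inducible disc genes ImpE2 and ImpE1 fell by 7.95 ± 0.18 and 5.86 ± 0.20, and spok, an enzyme of ecdysone synthesis in the larval ring gland, by 6.63 ± 0.15. Of 7 ecdysteroid synthesis enzymes 6 were lower. Higher in adults were Jhbp5, a juvenile hormone binding protein (5.08 ± 0.16), Eip93F (3.16 ± 0.30), the nuclear receptors Hr38 (3.10 ± 0.18) and ftz-f1 (2.68 ± 0.17), and Jheh2, which breaks down juvenile hormone (0.86 ± 0.11).

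Genes of proliferation and growth were lower in adult males. Of 37 cell cycle and replication genes, 35 were lower and 1 was higher, with a median of -1.51. Cyclin E, CycE, which starts S phase, read 7.72 and 8.03 in larvae and 4.30 and 4.23 in adults (-3.61 ± 0.14, adjusted p = 1.20e-07). The ribonucleotide reductase subunit RnrL fell by 3.51 ± 0.11, dUTPase by 3.44 ± 0.10 and PCNA, the sliding clamp, by 2.99 ± 0.11. All 5 measured Mcm helicase subunits were lower, by 1.77 to 2.65 in size. The exception rux, an inhibitor of mitotic cyclins, rose by 0.68 ± 0.12, and CycB3 differed by -0.28 ± 0.14 (adjusted p = 0.112).

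Genes of ribosome production followed the same direction. Of 31 ribosome biogenesis genes, 28 were lower and none higher, with a median of -0.91. The nucleolar chaperone Nlp read 12.67 and 12.64 in larvae and 10.29 and 10.45 in adults (-2.28 ± 0.10), the pseudouridine synthase Nop60B fell by 2.02 ± 0.11 and Nop56 by 1.95 ± 0.11. Of 41 measured cytosolic ribosomal proteins, 32 were lower and 3 higher, with a median of -0.61. RpL28 read 14.28 and 14.32 in larvae and 13.27 and 13.30 in adults (-1.01 ± 0.09), and RpL41, at 14.69 to 14.94 on the 4 arrays, differed by -0.16 ± 0.10 (adjusted p = 0.213). Whether the signal of RpL41 was near saturation was not tested. All 3 that rose are paralogs of a ribosomal protein gene: RpS28-like (2.21 ± 0.16), RpL10Aa (1.82 ± 0.19) and RpS28a (0.89 ± 0.14). Mitochondrial ribosomal proteins did not share a direction, with 13 higher, 15 lower and 41 not called of 69, all under 2-fold. These counts moved with the scaling, to 22 higher and 8 lower after recentring, and 7 were higher without male adults replicate 1 or without male larvae replicate 2. The number lower was 8 without male adults replicate 2 and 9 without either larval array.

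Imaginal disc patterning genes fell in 33 of 42 cases, with 1 higher and a median of -0.95. The protocadherin ds read 8.65 and 8.61 in larvae and 5.34 and 5.58 in adults (-3.17 ± 0.17), the GATA factor pnr fell by 2.71 ± 0.13 and the proneural genes sc and ac by 2.58 ± 0.18 and 2.54 ± 0.14. The eye determination gene so rose by 0.89 ± 0.13. Of 22 insulin and growth genes, 9 were lower and 2 higher, against 40.8% and 31.6% over all genes. ImpL2, which binds insulin-like peptides, fell by 1.94 ± 0.18, daw, a TGF-beta ligand, by 1.91 ± 0.10 and the kinase Akt by 1.54 ± 0.10, while the adipokinetic hormone Akh rose by 1.04 ± 0.10 and the neuropeptide sNPF by 1.86 ± 0.14. Of 21 genes of purine metabolism and renal transport, 10 were lower (47.6%) and 4 higher (19.0%), with a median of -0.38. The share lower is near the 40.8% over all genes. Gart, of purine synthesis, fell by 2.96 ± 0.16, Adsl by 1.74 ± 0.10 and Paics by 1.64 ± 0.11.

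Blood cell genes were mostly lower. Of 31 genes of hemocytes and extracellular matrix, 19 were lower and 8 higher, with a median of -1.05. Hemese, He, a surface protein of hemocytes, read 10.61 and 10.65 in larvae and 4.20 and 4.33 in adults (-6.36 ± 0.13, adjusted p = 2.85e-09). NimC2, a receptor of the Nimrod family, fell by 6.30 ± 0.18, and the prophenoloxidases PPO1 and PPO2 of crystal cells by 4.82 ± 0.17 and 4.47 ± 0.15. The marker atilla of lamellocytes, blood cells that encapsulate parasites, rose by 3.10 ± 0.17 from 8.75 and 8.82 to 11.90 and 11.87, and lectin-24A by 3.06 ± 0.15.

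Genes of digestion moved in both directions. Of 50 digestive proteases, 20 were higher and 19 lower, against shares of 31.6% and 40.8% over all genes. The share higher is somewhat above that over all genes, and the share lower is near it. The median was -0.18. Single members differed by up to 9.01. CG12374 read 5.72 and 5.47 in larvae and 14.61 and 14.58 in adults (9.01 ± 0.12, adjusted p = 3.46e-10), and the trypsin lambdaTry rose by 7.08 ± 0.23, CG10477 by 5.14 ± 0.19 and Ser8 by 5.13 ± 0.18. Jon66Ci, a chymotrypsin-like protease of the Jonah family, fell by 7.57 ± 0.21, from 14.13 and 14.18 to 6.41 and 6.77, its neighbour Jon66Cii by 6.65 ± 0.18 and CG11912 by 5.69 ± 0.38. Between these extremes yip7 read 14.92, 14.98, 15 and 14.98 on the 4 arrays, a difference of 0.04 ± 0.10 (adjusted p = 0.794). These values lie near the highest of the gene lists on the male arrays (15.46), and saturation of the signal was not tested. Of 13 Jonah genes, 9 were lower and 1 was higher, and of 9 trypsins named by Greek letters 6 were higher and 3 lower. Proteases of these clusters are similar in sequence, so cross-hybridisation between members was not tested here.

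Sugar-cleaving enzymes tended upward, with 14 of 21 higher, 6 lower and a median of 1.24. Within the Mal-A maltases, which split sucrose and maltose in the gut, 6 of 8 were higher and 1 was lower. Mal-A2 read 5.18 and 5.19 in larvae and 10.59 and 10.46 in adults (5.34 ± 0.11, adjusted p = 2.89e-09), Mal-A7 rose by 4.82 ± 0.14, Mal-A3 by 4.77 ± 0.18 and Mal-A1 by 4.73 ± 0.23. Mal-A5 went from 13.04 and 13.04 to 11.37 and 11.02 (-1.85 ± 0.14). The amylase relative Amyrel fell by 4.09 ± 0.32, with adult arrays of 6.82 and 5.79, and the mannosidases LManI and LManII by 1.73 ± 0.17 and 1.18 ± 0.13. The other 4 LMan genes were higher, LManVI by 3.44 ± 0.36, and this family was counted after its values were seen.

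Lysozymes, which in flies digest bacteria in the gut, also moved both ways. Of 9, 3 were higher (33.3%) and 5 lower (55.6%), against 31.6% and 40.8% over all genes. LysS read 12.61 and 13.14 in larvae and 6.25 and 5.82 in adults (-6.85 ± 0.21), and LysX fell by 4.37 ± 0.15. CG16756 rose by 4.14 ± 0.11 from 6.14 and 6.25 to 10.43 and 10.24, and LysP by 1.69 ± 0.31.

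**Figure D4:**
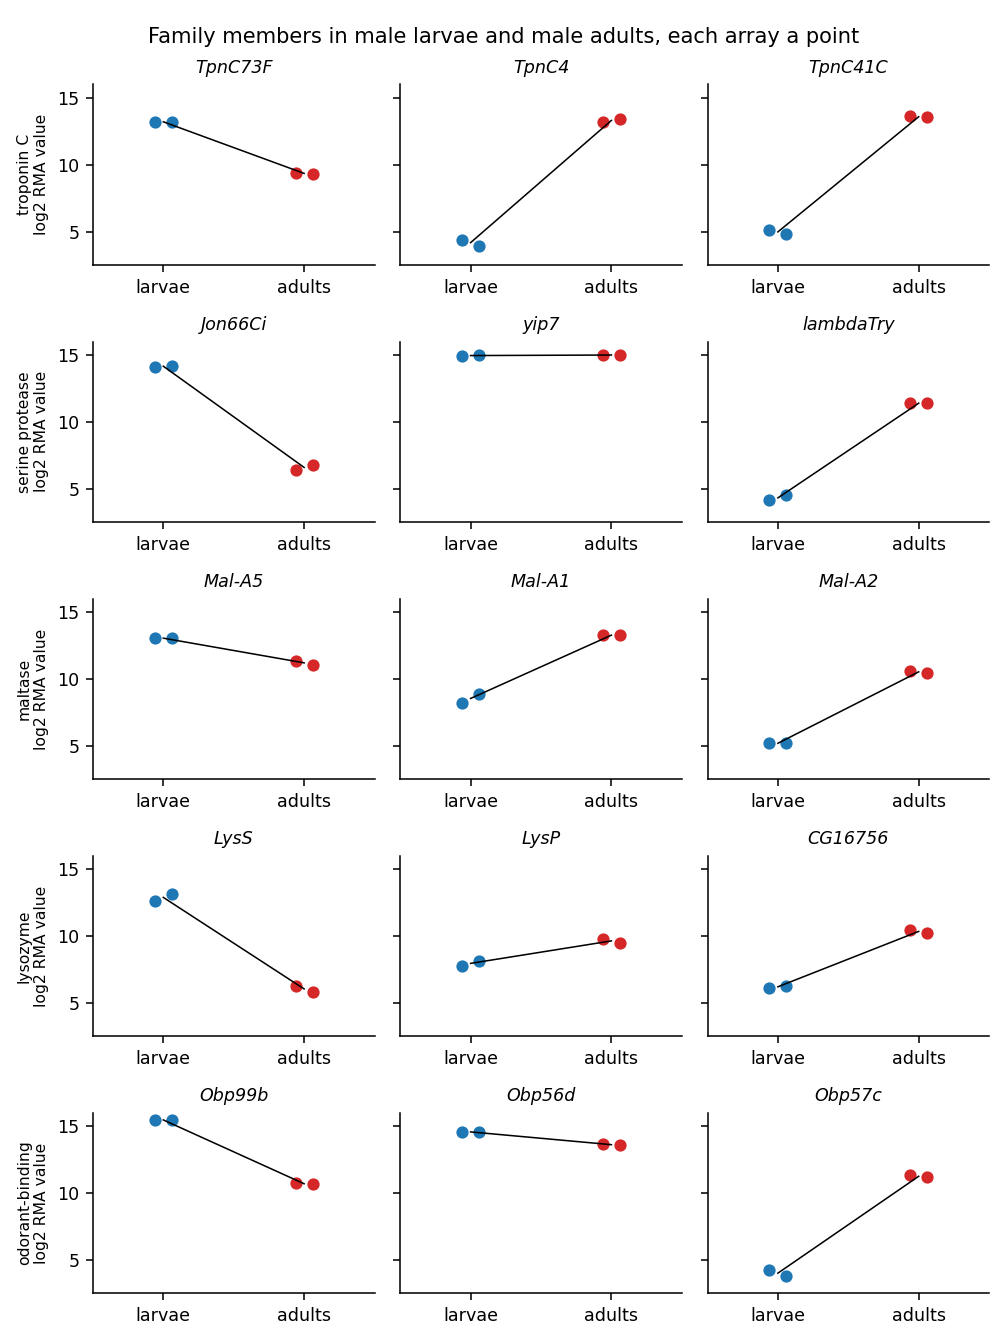
Log2 RMA value on each of the 2 male larval (blue) and 2 male adult (red) arrays for 3 genes of each of 5 families, with a line between the group means. In every row at least 1 gene falls, from TpnC73F (13.23 and 13.19 to 9.39 and 9.32) to Obp99b, and at least 1 rises, while yip7 stays between 14.92 and 15.

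Defence genes changed by family. All 8 measured Bomanins, short secreted peptides induced by the Toll pathway, were higher, by 4.35 to 7.49. BomBc2 read 5.54 and 5.70 in larvae and 13.14 and 13.08 in adults (7.49 ± 0.24, adjusted p = 3.55e-08), and BomS2, BomBc3 and BomS4 rose by 5.65 to 5.95. The antifungal peptide gene Drs was lower by -1.73 ± 0.28, Drsl2 by -3.89 ± 0.52, the serpin Spn43Aa by -4.97 ± 0.22 and GNBP3, which recognises fungal glucan, by -2.16 ± 0.12. The list of 32 antimicrobial and recognition genes holds 5 of these Bomanins. Of its members, 10 were higher (31.2%) and 9 lower (28.1%), with a median of -0.05. The share higher is near the 31.6% over all genes, and the share lower is under the 40.8%. The antibacterial peptide genes Mtk and DptB, which the naming rule did not choose, were not called, and their 2 adult arrays differed from each other by 2.58 and 2.04, more than those of any other gene in that group.

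Detoxification genes leaned upward. Of 81 cytochromes P450, 42 were higher (51.9%) and 18 lower (22.2%), with a median of 0.40. Of 69 glutathione and UDP-sugar transferases, 32 were higher (46.4%) and 19 lower (27.5%), with a median of 0.24. The shares over all genes were 31.6% and 40.8%. Cyp313a1 read 4.01 and 3.84 in larvae and 11.52 and 11.51 in adults (7.59 ± 0.12), Cyp4d21, expressed in the male head, rose by 6.74 ± 0.36 and Cyp6a2, known from insecticide resistance, by 4.82 ± 0.13. Cyp4d1 fell by 3.80 ± 0.16, Cyp304a1 by 3.74 ± 0.16 and Ugt37A3 by 4.09 ± 0.21. Ugt35B1 rose by 6.44 ± 0.24 and GstE6 by 3.97 ± 0.10.

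Genes of surface lipids and fat handling also differed. Cyp4g1, which makes the hydrocarbons that waterproof the cuticle, read 11.09 and 11.10 in larvae and 15.40 and 15.35 in adults (4.28 ± 0.10, adjusted p = 5.01e-09). Elo68alpha, an elongase needed for the male pheromone cis-vaccenyl acetate, rose by 5.72 ± 0.12 from 6.03 and 5.99, FASN2 by 5.76 ± 0.12 and the elongase sit by 3.25 ± 0.21. Of the 13 hydrocarbon genes 8 were higher and 1, Elo68beta, was lower (-0.52), a call that was lost when any male array was left out (adjusted p = 0.0546 to 0.231). ACC and FASN1, enzymes of fatty acid synthesis, rose by 3.37 ± 0.10 and 2.68 ± 0.12, while the lipid droplet protein Lsd-1 was lower by -1.94 ± 0.14. Over 37 lipid genes, 16 were higher and 16 lower (43.2% each), with a median of -0.12, against 31.6% and 40.8% over all genes. The sterol-binding Npc2 family held both a fall, Npc2e from 10.69 and 10.70 to 5.24 and 5.21 (-5.46 ± 0.20), and a rise, Npc2h (4.24 ± 0.10).

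Stress genes and the proton pump showed no common direction. Of 21 heat shock and stress genes, 7 were higher and 7 lower (33.3% each), against 31.6% and 40.8% over all genes. Hsp27 fell by 3.59 ± 0.16, from 13.58 and 13.68 to 10.24 and 9.85, and Hsp26 by 2.02 ± 0.26. Hsc70-1 rose by 5.21 ± 0.18, the metallothionein MtnC by 4.99 ± 0.18 and the stress peptide TotC by 3.99 ± 0.28. Of 31 vacuolar ATPase genes, 11 were higher (35.5%), 4 lower (12.9%) and 16 not called. Vha36-2 (2.45 ± 0.18) and Vha68-3 (2.20 ± 0.16) rose most, and Vha16-1, at 13.86 to 14.02 on the 4 arrays, differed by 0.12 ± 0.10 (adjusted p = 0.341).

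Genes of sex determination and behaviour were fixed for naming as anchors. At its brightest probe set fru, which patterns male courtship, read 5.39 and 5.20 in larvae and 8.01 and 8.19 in adults (2.81 ± 0.16, adjusted p = 1.04e-06). The further probe sets of fru differed by only 0.07 to 0.49, and not all of them were called. dsx, the last switch of somatic sex, rose by 1.14 ± 0.17. msl-2, the limiting part of male dosage compensation, was lower by -0.88 ± 0.12, and tra differed by -0.23 ± 0.10 (adjusted p = 0.080). Sxl was lower by -0.67 ± 0.10 at its brightest probe set and higher by 1.93 ± 0.12 at a dimmer one. The gene fit rose by 3.27 ± 0.18, from 5.63 and 5.73 to 8.73 and 9.17. Yp3, a yolk protein gene, rose in males from 5.56 and 5.11 to 8.03 and 7.73 (2.54 ± 0.18), whereas Yp1 (-0.16 ± 0.18) and Yp2 (-0.03 ± 0.15) were not called.

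Whether these changes were particular to males was tested as the male change minus the female change, on the same arrays and with the same call rule. By gene, 4212 of 11982 (35.2%) were called positive and 4217 (35.2%) negative. Across genes the male and female changes had a Pearson correlation of 0.47, a description over genes that are not independent replicates and are all read on the same arrays. In the same direction in both sexes, 1359 genes were higher and 1988 lower. In opposite directions, with the difference called, 625 genes were higher in male and lower in female adults and 2077 were lower in male and higher in female adults.

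Among 37 cell cycle genes all 37 were called negative, with medians of -1.51 in males and 2.58 in females, and 35 were called in opposite directions. PCNA illustrates this, with a fall of 2.99 ± 0.11 in males and a rise of 2.58 ± 0.11 in females (difference -5.57, adjusted p = 5.48e-08). Ribosome biogenesis was negative in 30 of 31 genes and the cytosolic ribosome in 35 of 41, with female medians of 1.5 and 0.25. Mitochondrial ribosomal proteins, near 0 in males, were negative in 64 of 69, and 68 were higher in female adults. On the same female adult arrays all 15 yolk and eggshell genes were higher, and the part of ovarian RNA in these differences was not tested.

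Positive differences were called for 68 of 75 respiratory chain genes, whose female median was 0.89, for 29 of 30 muscle genes (0.95 in males, -0.89 in females), for 25 of 28 glycolysis genes (female median 0.22) and for 30 of 43 neuronal genes (0.02). Seminal fluid genes were positive in 46 of 48 cases and testis genes in 49 of 69, with female medians of -0.08 and -0.07. All 8 Sgs genes were lower in female adults too, with a median of -9.40, and none of them was called in the test of the difference. Flight muscle isoforms rose in both sexes, by a median of 9.14 in males and 7.56 in females, and the 5 differences were called. Elo68alpha rose by 5.72 in males and fell by 2.74 in females, a difference of 8.47 (adjusted p = 1.06e-08). The stress peptide TotC rose by 3.99 in males and fell by 1.85 in females, and the small heat shock gene Hsp26 fell by 2.02 in males and rose by 2.5 in females (differences 5.84 and -4.52, both called). Lsp2 fell by 5.25 in females, to 9.37 and 10.52, which was 3.09 more than in males (adjusted p = 0.000426).

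**Figure D5:**
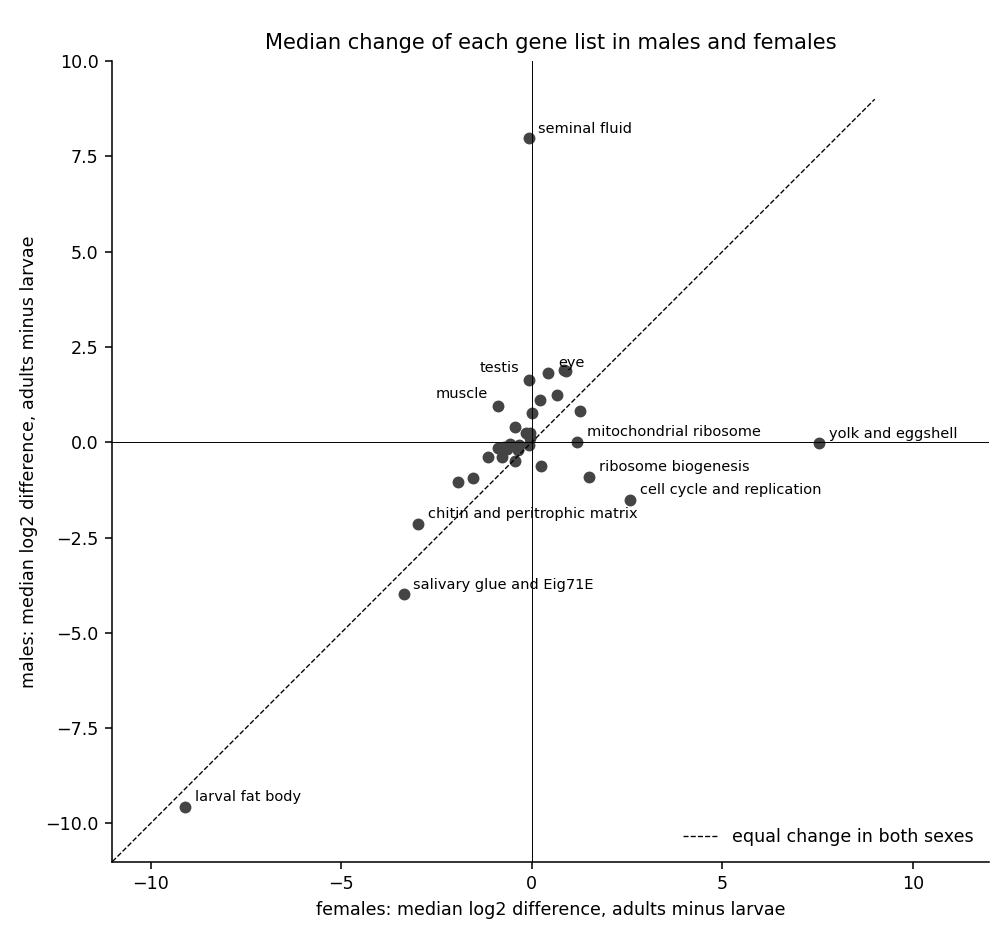
Median log2 difference between adults and larvae of each of 34 gene lists in females (x axis) and males (y axis), with the line of equal change. Glue and larval fat body lists lie near the line, seminal fluid, testis and muscle above it, and cell cycle, ribosome biogenesis, mitochondrial ribosome and yolk and eggshell to its right.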

How the data were processed

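Whole animals were hybridised to Affymetrix Drosophila Genome 2.0 arrays, 10 animals to each biological replicate and 2 arrays to each group, per the labels. The authors deposited log2 values summarised with RMA, per the submitters' processing notes, whose version is not given in the sources used here. RMA shares a background model and a normalization across arrays, so differences of dim probe sets are compressed. Scanner files were not used here, and every column of the table was matched to a sample (0 columns left unmatched).

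From the 18952 probe sets, 183 controls were left out and 18769 tested. GEO's platform annotation gave 13647 of them 1 gene, 402 several and 4720 none. Among 11982 genes, 1094 had more than 1 probe set, and the brightest of these over the 8 larval and adult arrays stood for the gene. limma 3.58.1 (R 4.3.3) fitted 4 group means to the 8 arrays (4 residual and 4.24 prior degrees of freedom). Male adults minus male larvae and the male minus the female change were tested two-sided with Benjamini-Hochberg adjustment, and called at an adjusted p under 0.05. The arrays measure no read depth, and 2 arrays a group limit the precision. The labels give no scan date or other batch.

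Gene lists (34, with 1527 entries) and named genes were chosen with earlier results of these data known. Subgroups within lists were chosen after their values were seen, and 8 entries that did not belong to a list by function were taken out by name. In 12 lists under 80% of entries were measured. Genes were named by rule: the 12 largest called differences each way, up to 4 called members a list and direction, the brightest member, up to 3 exceptions, anchor genes, and the 8 largest sex differences each way. Genes outside it are marked in the text or stand only in a count.

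Replicate numbers did not pair the samples: deviations of male larvae and male adults with the same number correlated at -0.0603. Tested on simulated data over 18769 probe sets, the male comparison recovered 13 of 50 differences of 0.5, 38 of 50 of 1, 46 of 50 of 2 and 50 of 50 of 4 (log2), with 6 false among 153 calls. In the data 10590 probe sets were called, so the Benjamini-Hochberg limit on p was stricter in the simulation. The recovered shares therefore do not give the recovery in the data. The alternatives were quantile normalization, centring on array medians, recentring on the deviations from probe set means, a filter at a mean of 5, all 12 arrays, the male arrays alone, a replicate block, trend and robust moderation, a fit to the brightest probe set of each gene, a minimum difference of 2-fold, and leaving out single arrays.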

Additional observations from a re-analysis of the deposited data

Results flagged for a closer look

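The change from larva to adult differed between males and females, as tested by the male change minus the female change in limma with Benjamini-Hochberg adjustment. It was called positive for 5174 and negative for 5062 of 18769 probe sets. The largest positive differences belonged to seminal fluid genes: EbpII (11.21), Ebp (11.12), Acp53Ea (10.97), Acp53C14a (10.95), Acp63F (10.84), Acp53C14b (10.63), Spn38F (10.30) and Sfp24Bb (9.95). The largest negative differences belonged to genes of yolk, eggshell and the female germ line. They were Yp1 (-9.84), the eggshell gene Cp36 (-9.12), the thioredoxin gene dhd of the egg (-9.0), nanos (-8.91), mtrm (-8.90), Yp2 (-8.69), osk (-8.65) and Cp19 (-8.40). Groups of 2 arrays are too small to test a single array as an outlier.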

How the results depend on the processing

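A 2-fold minimum reduced the probe sets called higher in male adults from 4569 to 2911, those called lower from 6021 to 2779 and those with a positive difference between the sexes from 5174 to 3440. This follows from the added size limit. Under the other alternatives all 4 counts stayed within 1.5 times. Leaving out 1 array gave 4149 to 4235 higher, 5418 to 5472 lower, 4683 to 5224 positive and 4815 to 5105 negative. With the replicate number as a block, 4550 were higher, 5973 lower, 5167 positive and 5022 negative, and since the numbers did not pair the samples this block has no meaning in the design. The median of all probe sets was -0.06, and -0.07, -0.01 and 0.03 after quantile normalization, median centring and recentring, with 43.0%, 45.5% and 48.3% of calls upward against 43.1%. The medians of the antimicrobial list, the adult and pupal cuticle list, and the stress list turned from -0.05, -0.08 and -0.07 to 0.04, 0.01 and 0.02 after recentring. The yolk and eggshell median in males turned from -0.03 to 0.01 after median centring and to 0.06 after recentring. No named gene reversed, and 14 of 266 called lost their call without some male array, all with differences between -0.60 and -0.31.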

Other observations

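Neighbouring genes changed together in places. A run was counted where at least 5 measured genes next to each other on an arm were all called in 1 direction with at least 4-fold differences, a rule set after the data were seen, and its genes fall outside the naming rule. There were 7 runs higher and 5 lower in male adults. The longest held 8 genes on 3L that were lower, from obst-F to CG17147, with a median of -6.27 (-8.68 to -3.29). A run of 7 genes on 3R in the E(spl) complex, targets of Notch signalling, was lower with a median of -3.27. On 2R, 6 Bomanins were higher (median 5.54), as were 6 genes from Sfp53D to Acp53C14c (8.52) and 5 genes from Cyp4e1 through Mal-A1 to Mal-A4 (4.77).

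By chromosome arm, 1.17% of 1873 X-linked genes were called and at least 16-fold higher in male adults, against 2.47% to 3.17% on the large autosomal arms. The X also had the smallest share at least 16-fold lower, 1.01% against 1.22% to 2.39% on those arms. The shares called higher at any size were 30.5% on X and 28.8% to 33.5% on those arms. Between the 2 male larval arrays, chosen here for their gap, CG14219 read 7.30 and 4.49, CG4757 7.54 and 4.87, and sug 7.17 and 9.63.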
